A study of Mus musculus with 8 samples.

Results

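Fibroblast growth factor 1 (FGF1) was given to mice before carbon-ion irradiation, and the irradiated small intestine was compared with that of mice given saline before the same dose. The comparison used 4 of the series' 8 arrays, 2 from the FGF1 group and 2 from the saline group, chosen by their labels alone. All mice were female BALB/cA Jcl animals aged 8 weeks. FGF1 or saline was injected intraperitoneally as a 12 h pretreatment before an 8 Gy dose of carbon ions, and small intestine (jejunum in the design text) was frozen 4 h after exposure. The other 4 arrays came from saline-treated mice given 0 Gy and from mice given the chimeric protein FGF1/CPP-C before 8 Gy. They served to estimate the spread between arrays and to give a background level. All 8 arrays also decided which probes were kept and which probe of a gene was brightest. Nothing in the labels says whether an array holds 1 animal or a pool, so p-values measure the spread between these samples, which may be technical.

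FGF1 is a secreted growth factor that binds, with heparan sulphate, to every receptor of the FGF receptor family. Receptor activation drives the Ras, Raf, MEK and ERK kinase cascade, which induces feedback inhibitors such as the Sprouty proteins and the ERK phosphatase Dusp6, as well as transcription factors of the Etv family. In the intestine, FGF receptor signalling acts on crypt cells, and crypts are the site of p53-dependent arrest and cell death in the first hours after irradiation.

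Levels are given as scaled log2 intensity, which is the log2 of a probe's processed signal minus the 75th percentile of that array, so that 0 is the array's 75th percentile. Differences are log2 fold changes, FGF1 minus saline, with the standard error (SE) or the 95% confidence interval of the limma fit, and n = 2 arrays per group. Signals were floored at -6.95 on this scale. A gene was called if its limma p, adjusted by Benjamini-Hochberg over all genes, was under 0.05.

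No gene was called between FGF1 and saline among 21653 tested, which is 0%, and the smallest limma adjusted p was 0.663. Unadjusted limma p-values under 0.05 were found for 379 genes, or 1.75% of those tested, 218 of them higher and 161 lower after FGF1. The authors' series matrix holds these same scanner signals wherever it gives a value. Scaled to the 75th percentile of the values present and used without a floor, they gave 82 higher and 140 lower. The arrays of the 2 groups did not overlap in 18.9% of 21512 genes with a value on all 4 arrays, with both FGF1 arrays above both saline arrays in 11.1% and below them in 7.81%. The fitted difference was above 0 in 53.9% of genes, and the median over all genes was 0.01. These shares are the background for every count below, and each gene named has a limma adjusted p of 1 unless another value is given. Leaving out the first saline array gave 2090 genes with an unadjusted p under 0.05, and leaving out the second saline array gave 601. With the slide as a block, 0 genes were called and 413 had an unadjusted p under 0.05.

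Replicate 1 of each group was hybridised on slide 1 and replicate 2 on slide 2, so each slide holds 1 FGF1 and 1 saline array. The difference went the same way on both slides in a minority of genes. It was above 0 on both in 18.7% of genes and below 0 on both in 15.5%. Transcripts of 2 organs other than jejunum varied between arrays of the same group. The median level of 19 measured stomach antrum markers, among them the mucin gene Muc5ac and the gastrin gene Gast, was -3.77 and 2.06 in the saline arrays and 1.07 and -3.79 in the FGF1 arrays (slide 1 first). The median of 21 measured pancreatic acinar genes was 2.79 in the second saline array and between -3.19 and -2.57 in the other saline and both FGF1 arrays. The summed linear signal of the antrum list, in multiples of each array's 75th percentile, was 444 and 1248 in saline and 1045 and 447 after FGF1. It was 5.4 and 3.8 in the FGF1/CPP-C arrays, so the lower saline and FGF1 arrays also held signal of some members. The second 0 Gy array had a sum of 822 with a median of -2.31, so the sum rests on the brightest members and does not describe the list. By the median, the antrum markers were high in 1 saline and 1 FGF1 array, on opposite slides, and the acinar genes in 1 saline array. Small intestine was present in all 4 arrays, with a median level of 31 absorptive enterocyte markers between 5.08 and 5.57. These markers do not tell jejunum from other parts of the small intestine. The median of 10 measured genes of Brunner glands, which lie in the duodenum, was 1.79 and 2.11 in saline and 2.12 and 1.92 after FGF1. It was -2.51 and -2.69 in the FGF1/CPP-C arrays.

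**Figure D1:**
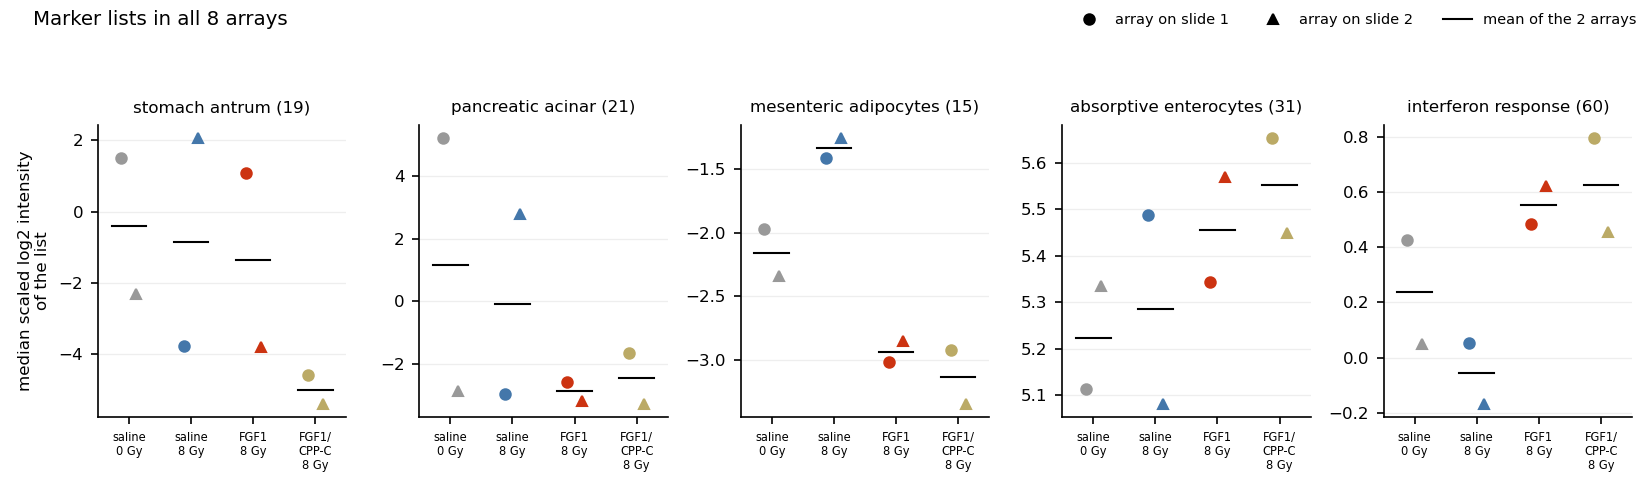
Median scaled log2 intensity of 5 marker lists (measured members in brackets) in each of the 8 arrays, by group, with circles for slide 1, triangles for slide 2 and a bar at the mean of the 2 arrays. The antrum median is high in the second saline array (2.06) and the first FGF1 array (1.07), the acinar median in the second saline array (2.79), and the adipocyte median is lower in both FGF1 arrays than in both saline arrays.

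The FGF ligand genes of the tissue did not differ detectably. None of 9 measured ligands had an unadjusted p under 0.05, and the list's median difference was 0.02. The endogenous Fgf1 transcript stood at -0.12 and 0.13 in the saline arrays and at 0.04 and 0.14 in the FGF1 arrays. These values overlap, and the difference was 0.08 with a 95% interval from -0.22 to 0.39. Fgf15, the ileal hormone that represses bile acid synthesis in liver, had values from -4.03 to -3.73 in saline and -5.35 to -3.69 after FGF1. Fgf9 differed by 0.25 ± 0.18 (SE), Fgf10 by -0.45 ± 0.74 (SE), and Fgf7, a mesenchymal ligand for the epithelial form of Fgfr2, by -0.10 ± 0.18 (SE).

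The receptor genes were close to equal in both groups. Fgfr1 differed by -0.11 (95% interval -0.47 to 0.25), Fgfr2 by -0.02 (-0.24 to 0.21), Fgfr3 by -0.01 (-0.37 to 0.35) and Fgfr4 by -0.03 (-0.39 to 0.33). A difference of 1.5-fold or more in any of these receptors would lie outside its interval. Among the 12 measured receptors, coreceptors and FGF-binding genes, 1 had an unadjusted p under 0.05 (8.33%). This was Fgfbp1, whose product carries FGFs away from the matrix. Its level was -4.00 and -3.84 in saline and -4.16 and -4.52 after FGF1, so both FGF1 arrays were lower, with a difference of -0.42 ± 0.14 (SE). Klb, the coreceptor for Fgf15, ranged from -5.01 to -2.58 over the 4 arrays with no separation of the groups.

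Feedback genes of the ERK cascade, which FGF receptor signalling induces, showed no common direction. Of 17 measured members, 8 were above and 9 below 0, none had an unadjusted p under 0.05, and the median was -0.01. Dusp6 stood at 3.56 and 2.89 in saline and 3.45 and 3.68 after FGF1. The second saline array was the lowest and the first lay within the FGF1 range, and the difference was 0.34 with a wide 95% interval from -0.38 to 1.06. Spry1 differed by -0.01 (-0.27 to 0.26), Spry2 by 0.05 (-0.33 to 0.43), Etv4 by -0.07 (-0.33 to 0.20) and Etv5 by -0.22 (-0.97 to 0.54). Dusp4, another ERK phosphatase, was the only member whose arrays did not overlap, at -3.51 and -3.29 in saline and -3.71 and -3.61 after FGF1. The immediate early transcription factors Egr1 (-0.37 ± 0.51, SE) and Fos (0.15 ± 0.34, SE) differed less than their replicates did.

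As a list, arrest and feedback genes of the p53 response to irradiation had no common direction across slides. None of 33 measured arrest and feedback targets had an unadjusted p under 0.05, 17 were above and 16 below 0, and the median was 0.01. On slide 1 alone the median was 0.13, with 26 of 33 higher (78.8% against 44.1% of all genes). On slide 2 alone it was -0.15, with 10 of 33 higher (30.3% against 59.0%). Cdkn1a, the cyclin-dependent kinase inhibitor p21, stood at 3.68 and 3.68 in saline and 3.82 and 3.82 after FGF1. Its difference was small and had a 95% interval from -0.15 to 0.44. Mdm2, the ubiquitin ligase that degrades p53, differed by 0.09 (-0.24 to 0.42). The pro-apoptotic genes Bbc3 (-0.03, interval -0.61 to 0.54) and Bax (0.02, interval -0.27 to 0.30) were as close. Among 23 measured pro-apoptotic genes, 1 had an unadjusted p under 0.05. This was Casp8, the initiator caspase of death receptor signalling, at 2.69 and 2.26 in saline and 2.83 and 3.11 after FGF1.

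Mitosis genes were slightly lower in the FGF1 arrays, and none was called. Of 28 measured mitosis genes, 27 were below 0 with a median of -0.13, and in 16 both FGF1 arrays were below both saline arrays, a share of 57.1% against 7.81% of all genes. None had an unadjusted p under 0.05. Slide 1 alone gave a median of -0.12 and slide 2 alone -0.17. The differences were small, such as -0.31 ± 0.14 (SE) for the checkpoint kinase gene Bub1b, -0.24 ± 0.11 (SE) for the spindle factor Tpx2 and -0.20 ± 0.12 (SE) for Cdk1. Mki67, a marker of cycling cells, stood at 1.87 and 1.77 in saline and 1.68 and 1.67 after FGF1. Of 31 DNA replication genes, 25 were below 0 with a median of -0.07. Slide 1 alone gave -0.12, but on slide 2 alone 15 of 30 were higher and the median was 0.0003, and without the second saline array it was -0.14. The DNA primase gene Prim1 had the smallest unadjusted p, at 0.01 and 0.05 in saline and -0.19 and -0.25 after FGF1. The stem cell marker Lgr5 differed by 0.32 (95% interval -0.15 to 0.79), and Olfm4 by -0.30 (-1.29 to 0.68).

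The interferon response genes formed the list with the highest median. Interferons act through transcription factors, Irf9 among them, that bind the interferon-stimulated response element (ISRE) in target promoters and induce antiviral effectors. Of 60 measured members, 56 were above 0 with a median difference of 0.31, against 53.9% and 0.01 over all genes. None was called, but 12 had an unadjusted p under 0.05, all of them higher after FGF1, which is 20.0% against 1.75% of all genes. Both FGF1 arrays were above both saline arrays in 32 members (53.3%) and below in 0, against 11.1% and 7.81% of all genes. The 4 members below 0 were Isg20 and Gbp6 and the chemokine genes Cxcl10 and Cxcl11.

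The ISRE core was searched as GAAANNGAAA on both strands in the 250 bases before the transcription start, in RefSeq promoters of the mouse build GRCm38.p6. Of the 60 members, 43 were matched to a promoter, and 19 of these held the core (44.2%). It was held by 3.34% of the promoters of 13316 tested genes. A match is a description of the letters and shows no binding. The core was held by 3 of the 12 members with an unadjusted p under 0.05. How many of these 12 were matched to a promoter was not counted, so no share is set against the 44.2%. The promoter stretches of these 3 are shown as examples from the 19 members with the core. Capitals mark the core, read 5′ to 3′ on the strand of the gene. They are Isg15 on the minus strand (chr4:156200845-156200936), Oas3 on the minus strand (chr5:120777695-120777774) and Gbp2 on the plus strand (chr3:142620564-142620643).
Isg15: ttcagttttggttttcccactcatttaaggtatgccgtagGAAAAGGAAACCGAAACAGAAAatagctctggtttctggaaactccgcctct
Oas3: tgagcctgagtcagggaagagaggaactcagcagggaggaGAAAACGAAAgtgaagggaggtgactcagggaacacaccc
Gbp2: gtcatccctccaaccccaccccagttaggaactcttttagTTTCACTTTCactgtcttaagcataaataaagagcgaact
The Isg15 stretch holds 3 overlapping matches, the first starting 78 bases before the transcription start. The Oas3 match starts 75 bases and the Gbp2 match 59 bases before it, the latter on the opposite strand. Members with the core had a median difference of 0.35 and those without it 0.31.

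Isg15, a ubiquitin-like protein attached to other proteins in antiviral defence, had levels of 3.66 and 3.34 in saline and 3.98 and 4.19 after FGF1. Both FGF1 arrays were higher, and the difference was 0.59 ± 0.22 (SE). Usp18, the protease that removes Isg15, stood at -0.61 and -0.76 in saline and -0.06 and 0.03 after FGF1. Oligoadenylate synthetases activate RNA degradation on sensing double-stranded RNA, and 3 of their family had an unadjusted p under 0.05. Oas2 stood at -0.93 and -0.65 in saline and 0.02 and -0.01 after FGF1, a difference of 0.80 ± 0.24 (SE). Oas3 stood at -2.89 and -2.81 in saline and -2.33 and -1.94 after FGF1. Oasl2 stood at 1.05 and 0.92 in saline and 1.55 and 1.72 after FGF1. In all 3, the FGF1 arrays lay above the saline arrays, while for Oas1a they overlapped (0.07 ± 0.49, SE).

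Dhx58, an RNA helicase that regulates viral RNA sensing, had the smallest unadjusted limma p of the list, 0.00688, with levels of -1.62 and -1.74 in saline and -1.25 and -0.97 after FGF1. Ifi44 was at -2.62 and -2.94 in saline and at -2.13 and -2.38 after FGF1. Gbp2, an interferon-induced GTPase, stood at -0.63 and -0.96 in saline and -0.43 and -0.40 after FGF1. For Parp14 the fit used 1 saline array, since the other carried an outlier mark, and gave 0.59 ± 0.15 (SE). In the 0 Gy saline arrays Isg15 was at 3.73 and 3.52, Oas2 at -0.52 and -0.90 and Dhx58 at -1.51 and -1.52. The median level of the whole list was 0.43 and 0.05 in the 0 Gy saline arrays, 0.05 and -0.17 in irradiated saline and 0.48 and 0.62 after FGF1, so the first 0 Gy array lay nearer to the FGF1 arrays. Of the transcription factor genes, the difference was 0.31 ± 0.15 (SE) for Irf9 and 0.38 ± 0.18 (SE) for Irf7. For Stat2 it was 0.42 without the first irradiated saline array and -0.01 without the second.

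The interferon list differed more on slide 2 than on slide 1. The arrays of slide 1 gave a median of 0.07 and those of slide 2 0.57, and 34 of 59 members with both values were higher on both slides, a share of 57.6% against 18.7% of all genes. Without the second saline array, in which the antrum and acinar transcripts were high, the median was 0.16. Leaving out both arrays rich in antrum transcripts left the FGF1 array of slide 2 against the saline array of slide 1. The median was then 0.18. Macrophage and dendritic cell markers went the same way. Of 20 measured, 18 were above 0 with a median of 0.23. In 8 both FGF1 arrays were above both saline arrays (40% against 11.1% of all genes). An unadjusted p under 0.05 was found for 3 (15% against 1.75%). The summed signal of these markers was 42.9 and 31.8 in saline and 45.6 and 43.9 after FGF1. In bulk tissue, more cells of a type and more RNA per cell cannot be told apart. The part of either cell number or the foreign tissue in the interferon values was not tested.

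**Figure D2:**
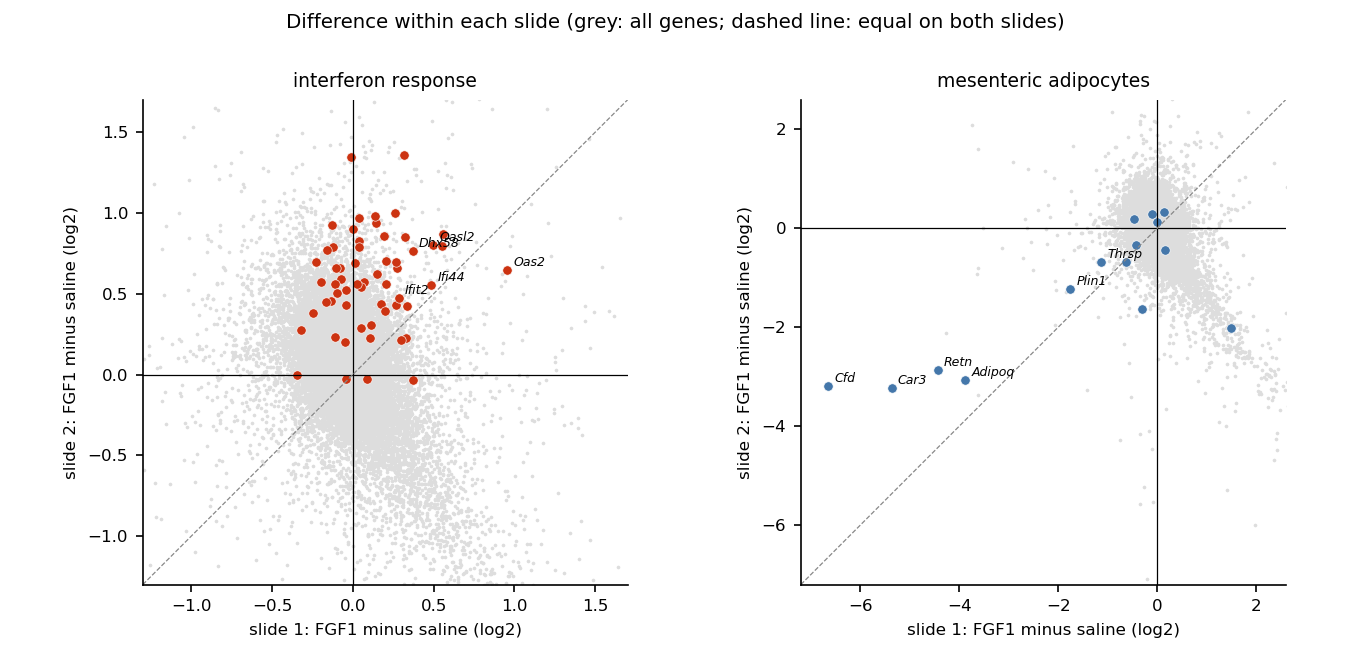
Difference between the FGF1 and the saline array of slide 1 (horizontal, log2) against that of slide 2 (vertical, log2) for the interferon response list (left, red) and the mesenteric adipocyte list (right, blue), with all genes in grey where they fall within the axes. Interferon members lie mostly above 0 on slide 2 (median 0.57) and around 0.07 on slide 1, while Cfd, Car3, Retn and Adipoq lie far below 0 on both slides.

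Adgre1, the F4/80 antigen of macrophages, had the smallest p of the myeloid markers. It stood at -2.03 and -2.27 in saline and -1.52 and -1.52 after FGF1, a difference of 0.63 ± 0.15 (SE). The complement genes C1qc and C1qa, which tissue macrophages make, differed by 0.40 ± 0.10 (SE) and 0.35 ± 0.11 (SE) with no overlap of arrays. Without the second saline array the list's median was 0.02, so its size rests on that array. Adgre1 on slide 1 alone still differed by 0.51.

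The calprotectin genes S100a8 and S100a9 and the acute-phase gene Saa3 were the established genes with the largest differences above 0. Calprotectin is a calcium- and zinc-binding dimer of neutrophils, macrophages and stressed epithelium. S100a9 (probe at chr3:90496573-90496632, mm9) stood at -3.76 and -4.68 in saline and at -1.87 and -1.47 after FGF1. S100a8 (probe at chr3:90473778-90473837, mm9) stood at -6.10 and -6.55 in saline, well above background on 1 of the 2 arrays, and at -4.06 and -3.85 after FGF1. For both genes the FGF1 arrays were clearly above the saline arrays on each slide. S100a9 was 5.83-fold higher (log2 difference 2.54 ± 0.34, SE) and S100a8 5.17-fold (2.37 ± 0.26, SE). S100a8 had a limma adjusted p of 0.70, and after normexp background correction its difference was 1.09. It was kept only because both arrays of the FGF1 and of the FGF1/CPP-C group, where it is high, were well above background. The filter therefore favoured its place in the counts of inflammatory genes and neutrophil markers below.

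Saa3, a serum amyloid A protein made locally by epithelium and macrophages, stood at -2.39 and -2.94 in saline and at -0.55 and -0.59 after FGF1 (probe at chr7:53970389-53970448, mm9). This is a 4.27-fold difference with a 95% interval of the log2 value from 1.00 to 3.18. In the 0 Gy saline arrays Saa3 was at -5.39 and -6.04, so the irradiated saline arrays already lay above those, and S100a9 was at -4.21 and -4.53. Of 33 measured inflammatory genes, 5 had an unadjusted p under 0.05 (15.2% against 1.75% of all genes), all higher after FGF1. The other two were Ccl8, a monocyte chemokine (0.88 ± 0.29, SE), and Saa2 (0.83 ± 0.30, SE), whose sequence is close to Saa1 (0.58 ± 0.37, SE), so that their probes may not separate them.

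The other neutrophil markers did not follow the calprotectin genes. Of 9 measured, only S100a8 and S100a9 had an unadjusted p under 0.05, and the list's median was 0.03. The granule enzyme gene Mpo differed by 0.18 (95% interval -0.40 to 0.76), the granule peptide gene Camp by -0.03 (-0.27 to 0.21), Csf3r, the receptor for granulocyte colony-stimulating factor, by -0.02 (-0.33 to 0.28) and Elane by 0.03 (-0.58 to 0.65). Cxcr2, Mmp8 and Ngp were not well above background on both arrays of any group. The summed signal of the 9 markers was 75.5 and 67.5 in saline and 76.1 and 64.1 after FGF1. Their median level was -3.15 and -3.83 in saline and -2.93 and -3.04 after FGF1. The sum therefore rests on the brightest members and does not describe the list. The cytokine genes Il1b (0.23 ± 0.15, SE) and Ccl2 (-0.15 ± 0.12, SE) had overlapping arrays.

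**Figure D3:**
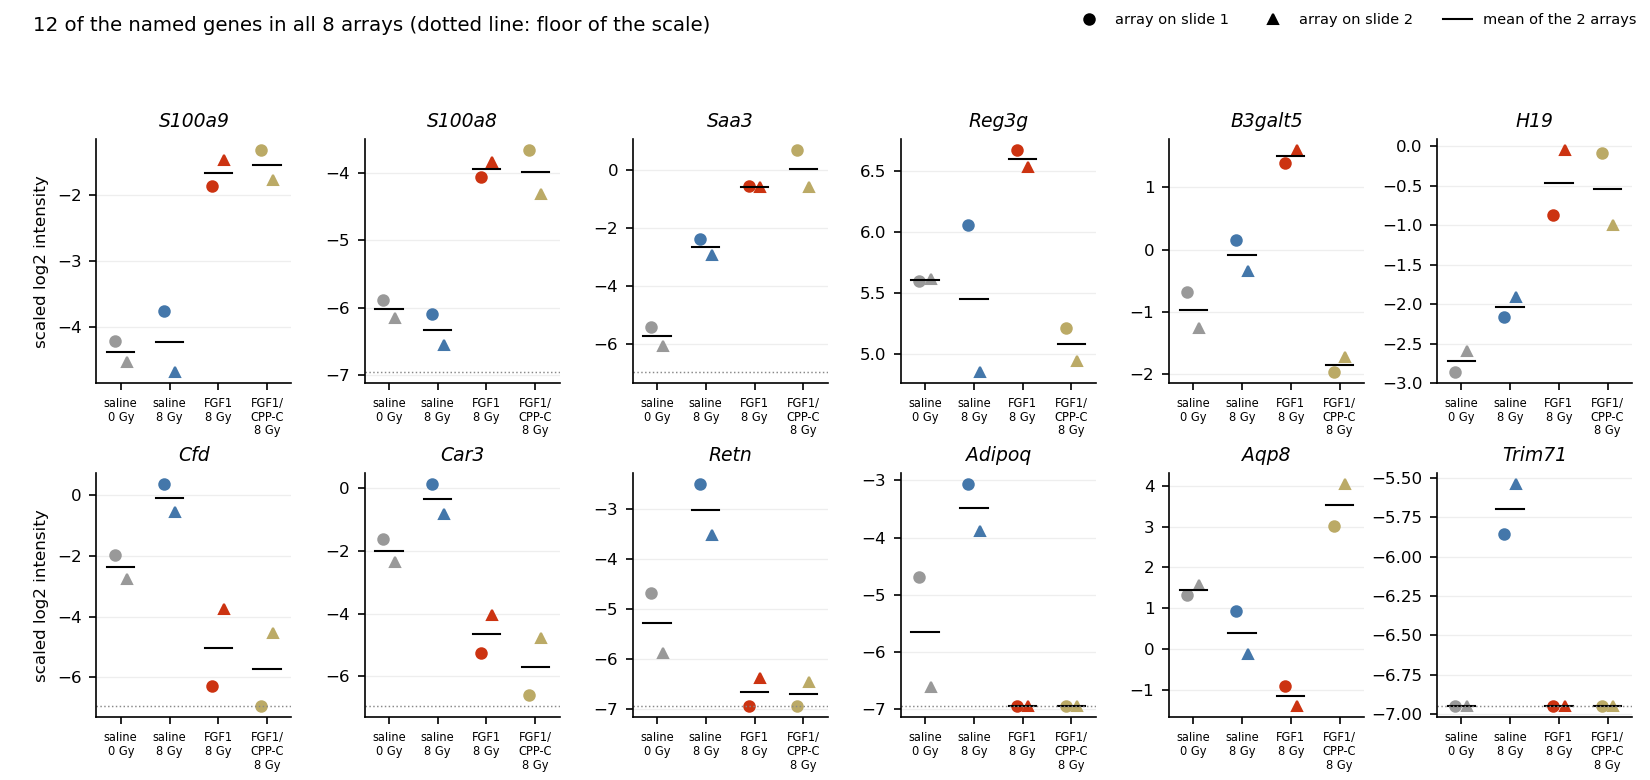
Scaled log2 intensity of 12 named genes in all 8 arrays by group, with circles for slide 1, triangles for slide 2, a bar at the mean of the 2 arrays and a dotted line at the floor of -6.95 where it lies near the values. S100a9, S100a8, Saa3, Reg3g, B3galt5 and H19 are higher in both FGF1 arrays than in both irradiated saline arrays, and Cfd, Car3, Retn, Adipoq, Aqp8 and Trim71 are lower.

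The antibacterial lectin genes Reg3g and Reg3b were also higher in both FGF1 arrays. Reg3g, which kills Gram-positive bacteria at the mucosal surface, stood at 6.06 and 4.85 in saline and 6.67 and 6.53 after FGF1. Reg3b stood at 7.26 and 5.53 in saline and 7.51 and 7.60 after FGF1. The second saline array was the lowest for both. The difference was 1.15 ± 0.37 (SE) for Reg3g and 1.16 ± 0.54 (SE) for Reg3b, and without the second saline array that of Reg3g was 0.55. Reg3a, of the same family, overlapped between the groups (0.19 ± 0.55, SE). Of 18 measured Paneth cell genes, 15 were above 0 with a median of 0.16, and 9 had both FGF1 arrays above both saline arrays against 11.1% of all genes. The median was 0.07 on slide 1 alone, 0.26 on slide 2 alone and 0.09 without the second saline array. The lysozyme gene Lyz1 (0.14 ± 0.25, SE) and the alpha-defensin gene Defa24 (0.07 ± 0.17, SE) differed by less than their errors.

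Among genes of the epithelial surface, 2 glycosyltransferases were higher after FGF1. B3galt5, which builds type 1 chain oligosaccharides of mucins and glycolipids, stood at 0.15 and -0.33 in saline and 1.40 and 1.60 after FGF1 (probe at chr16:96541170-96541229, mm9). The difference was 3.01-fold (log2 1.59 ± 0.25, SE), and the 0 Gy saline arrays lay lower, at -0.67 and -1.27. Fut2, the fucosyltransferase that adds terminal fucose to intestinal glycans, stood at -1.99 and -1.50 in saline and -0.45 and -0.84 after FGF1, a difference of 1.11 ± 0.33 (SE). H19, an imprinted long noncoding RNA, differed by 1.58 ± 0.38 (SE) with its brighter probe and by 0.48 with the mean of its 2 probes, so the probes disagree. Sprr2f, a cornified envelope protein gene, was 2.07-fold higher and Chil1, a chitinase-like protein gene, 2.48-fold. Defb1, a beta-defensin gene, was at least 2.56-fold higher and was kept only because both FGF1 arrays were well above background. In saline these genes had levels near background.

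Transport and digestion genes of the epithelium included a few that were lower after FGF1. Aqp8, a water channel of surface enterocytes, stood at 0.93 and -0.12 in saline and -0.92 and -1.41 after FGF1. Both FGF1 arrays were lower, with a difference of -1.56 ± 0.46 (SE), and the 0 Gy saline arrays were at 1.31 and 1.56. Slc28a1, a pyrimidine nucleoside transporter, stood at 1.34 and 0.64 in saline and 0.08 and -0.54 after FGF1, a difference of -1.22 ± 0.34 (SE). Enpp7, the alkaline sphingomyelinase of the brush border, differed by -1.10 ± 0.31 (SE) and was well above background on 1 of the 2 FGF1 arrays. Dkk4, a secreted Wnt inhibitor, was not well above background on either FGF1 array and was at least 2.06-fold lower. The absorptive enterocyte list as a whole had no common direction across slides, with 2 of 30 members higher on slide 1 and 30 of 30 on slide 2.

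Among genes with an unadjusted p under 0.05, those of adipocytes had the largest differences below 0. White fat cells of the mesentery secrete adiponectin, resistin and the complement factor adipsin. Cfd, the adipsin gene, stood at 0.36 and -0.56 in saline and -6.29 and -3.75 after FGF1 (probe at chr10:79355302-79355361, mm9). Car3, the carbonic anhydrase abundant in fat, stood at 0.11 and -0.83 in saline and -5.25 and -4.05 after FGF1. Both genes were far below the saline arrays in each FGF1 array, with differences of -4.92 ± 1.08 (SE) and -4.29 ± 0.72 (SE), although Cfd was well above background on 1 of the 2 FGF1 arrays only. The 0 Gy saline arrays lay between, at -1.97 and -2.75 for Cfd and -1.64 and -2.34 for Car3.

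Adipoq, the adiponectin gene, stood at -3.07 and -3.89 in saline and at the floor of -6.95 on both FGF1 arrays, where it was not well above background. It was at least 11.1-fold lower. Retn, the resistin gene, stood at -2.52 and -3.52 in saline and was not well above background after FGF1, at least 12.6-fold lower. Plin1, which coats lipid droplets, was at least 2.81-fold lower in the same way. Cyp2e1, an oxidase of liver and fat, stood at -1.26 and -2.41 in saline and -4.88 and -5.77 after FGF1, while the hepatocyte gene Alb was not well above background on both arrays of any group. These bounds set the saline mean against the higher of each FGF1 signal and the lowest signal well above background on that array.

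Of 15 measured adipocyte genes, 12 were below 0 with a median of -0.66, and 8 had an unadjusted p under 0.05 (53.3% against 1.75% of all genes). Both FGF1 arrays were below both saline arrays in 9 of the 15, against 7.81% of all genes. Adipoq and Plin1 were kept only because both irradiated saline arrays, where they are high, were well above background. The filter therefore favoured their place in these counts. Slide 1 alone gave a median of -0.46 and slide 2 alone -0.69. Leaving out both arrays rich in antrum transcripts left the FGF1 array of slide 2 against the saline array of slide 1, and gave -0.87. The list was at a median level of -1.42 and -1.26 in saline and -3.02 and -2.85 after FGF1. The members did not all differ alike, with 0.06 ± 0.17 (SE) for Fabp4, 0.10 ± 0.18 (SE) for Cidec and -0.97 ± 0.50 (SE) for Pck1, a gluconeogenic enzyme gene that other gut cells also express. With probes required to be well above background on all 8 arrays, which leaves out members at the floor, the median was -0.14. The amount of mesenteric fat in each sample was not recorded in the labels, and its part in these values was not tested.

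**Figure D4:**
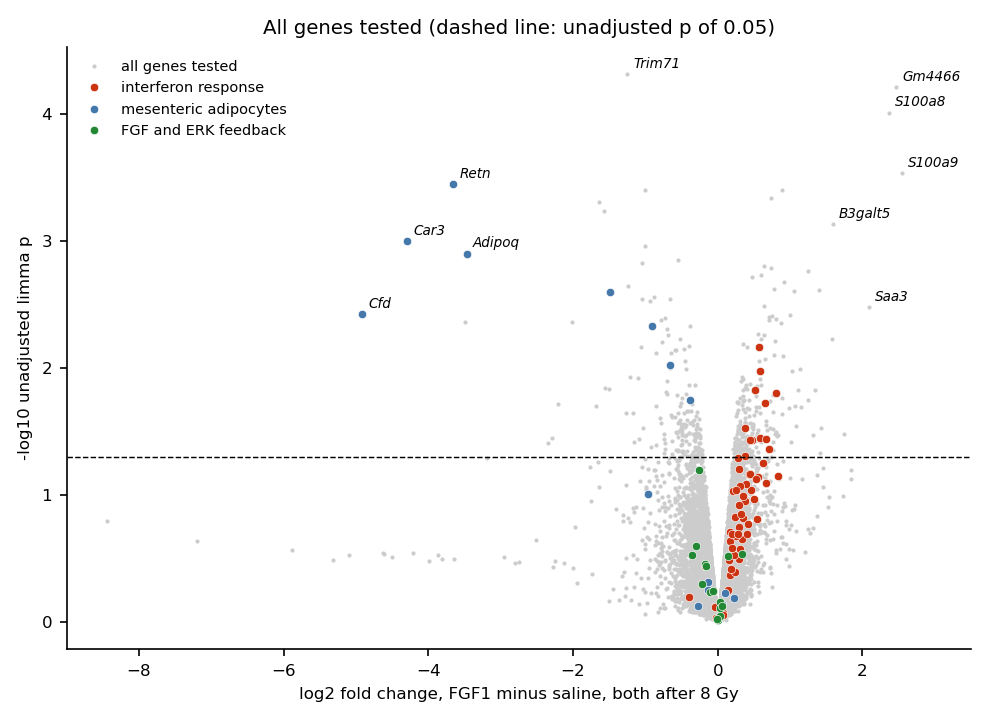
Log2 fold change (FGF1 minus saline, horizontal) against -log10 of the unadjusted limma p (vertical) for all 21653 genes tested in grey, with the interferon response (red), mesenteric adipocyte (blue) and FGF and ERK feedback (green) lists on top and a dashed line at an unadjusted p of 0.05. The 12 interferon members above the line lie to the right of 0 and the 8 adipocyte members to the left, while no feedback gene lies above it.

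The gene of smallest unadjusted limma p was Trim71 (4.84e-05, adjusted p 0.66), a developmental RNA-binding protein gene. It stood at -5.86 and -5.54 in saline and at the floor after FGF1, at least 2.38-fold lower, and the 0 Gy saline arrays were at the floor too. Next was the predicted gene Gm4466, at the floor in saline and at -4.07 and -4.89 after FGF1, at least 5.33-fold higher (adjusted p 0.66). Both rest on signals near the detection limit, and each was kept only because the group where it is high was well above background. With no filter on dim probes, another probe of Trim71 was the brightest, and its difference was 0.07 on the log2 scale, so the probes disagree.

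Metabolic and detoxification genes gave several small differences with separated arrays. Nr1d1, the clock repressor Rev-erb alpha, stood at -2.43 and -2.62 in saline and -3.72 and -3.21 after FGF1, a difference of -0.94 ± 0.20 (SE). Of 18 measured clock genes, it alone had an unadjusted p under 0.05. Pdk4, which restrains pyruvate oxidation, and Cyp4a10, a fatty acid hydroxylase, both induced through PPAR alpha, differed by -0.58 ± 0.21 (SE) and -0.55 ± 0.18 (SE), and the median of 24 such genes was -0.02. Cyp1b1, a target of the aryl hydrocarbon receptor, stood at -2.51 and -2.73 in saline and -2.00 and -2.15 after FGF1, while Cyp1a1 differed by -0.31 ± 0.19 (SE).

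Glutathione genes differed in both directions. The glutathione transferase genes Gsta3 (-0.79 ± 0.27, SE), Gsta4 (-0.53 ± 0.18, SE), Gsta2 (-0.56 ± 0.20, SE) and Gstm1 (-0.50 ± 0.20, SE) were lower in both FGF1 arrays. Gclc, the rate-limiting enzyme of glutathione synthesis, stood at 2.19 and 1.90 in saline and 2.36 and 2.54 after FGF1. These were 5 of 24 measured NRF2 targets with an unadjusted p under 0.05 (20.8% against 1.75%), and the list's median was 0.01. Genes of the alpha class (Gsta2, Gsta3 and Gsta4) are related in sequence, and whether their probes cross-hybridise was not tested. Ccn2, a growth factor target also known as connective tissue growth factor, stood at -0.44 and -0.24 in saline and -0.67 and -0.95 after FGF1.

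**Figure D5:**
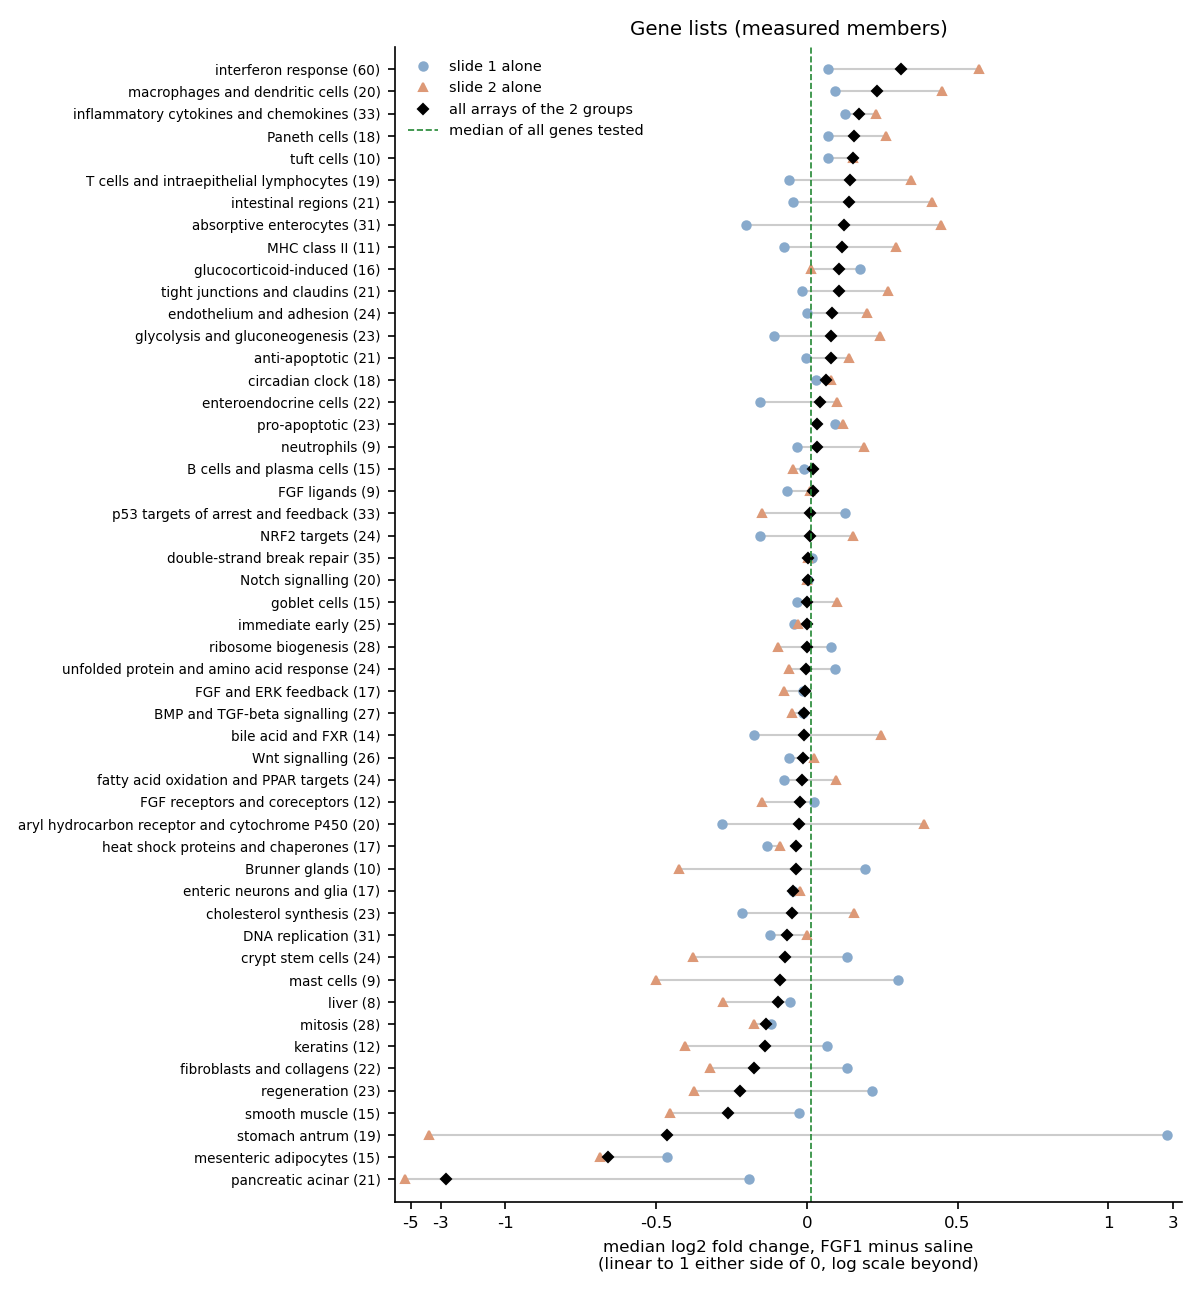
Median log2 fold change (FGF1 minus saline) of the measured members of each of 51 gene lists, with diamonds for the fit, circles for slide 1 alone and triangles for slide 2 alone, a dashed line at the median of all genes tested (0.01), and an axis that is linear to 1 either side of 0 and logarithmic beyond. The interferon list lies highest (0.31), the adipocyte (-0.66) and pancreatic acinar (-2.75) lists lowest, and the antrum list runs from 2.71 on slide 1 to -3.64 on slide 2.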

How the data were processed

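RNA from small intestine was labelled with Cy3 and hybridised to Agilent 1-colour arrays, per the labels' protocols. The deposited values are probe intensities on a linear scale, read with Agilent Feature Extraction 9.5.3.1 per the file headers, background-subtracted and detrended within each array, with mm9 probe coordinates. Their log2 was scaled to each array's 75th percentile (intensities 1735 to 2165) and floored at -6.95. Control spots (1377 per array) and outlier-marked spots were left out, and spots were averaged to 39429 probes. Of the non-control spots, outlier-marked ones included, 68.2% to 72.5% per array were well above background. Probes well above background on both arrays of a group were kept, giving 21675 genes, each by its brightest probe. RefSeq named 28741 probes by accession and 2200 by symbol.

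Group means of all 8 arrays were fitted with limma 3.58.1 in R 4.3.3 (package data.table, version 1.17.8), with 4 residual degrees of freedom. An exact permutation test of 2 against 2 arrays cannot go below p = 0.333. Scripts were tested on simulated data. The comparison, genes and lists were chosen with earlier results of these data known. Named genes were, per direction, the 15 of largest difference with an unadjusted p under 0.05, at least 2-fold apart, separated and with an established symbol. To these were added FGF, p53, stem cell and regeneration genes (Spry4 was not measured), up to 4 members of smallest p per list, genes called under an alternative and the 5 of smallest p. Other members were named after their values were seen. Figures used matplotlib 3.10.9 in Python 3.11.15.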

Additional observations from a re-analysis of the deposited data

How the results depend on the processing

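The count of called genes was 0 in the main fit and in all alternatives except 2. When probes of a gene were averaged, 2 genes passed, Hnrnpf (2.09, limma adjusted p 0.0287) and Thra (2.46, adjusted p 0.0287), whose brightest probes had outlier marks on both saline arrays, so that their means rest on different probes in the 2 groups. Without the second FGF1 array 1 gene passed, Gm4466 (2.88, adjusted p 0.0384). The count of genes with an unadjusted p under 0.05, 379 in the main fit, was 222 with the series matrix values, 752 with no filter on dim probes, 230 with the 2 groups fitted alone and 810 without the arrays rich in antrum transcripts. Leaving out 1 array at a time gave 0 to 1 called genes and 292 to 2090 with an unadjusted p under 0.05. The fit with the replicate number, which is the slide, as a block gave 0 called genes and 413 with an unadjusted p under 0.05. Same-numbered saline and FGF1 arrays had deviations correlated at -0.364, and the crossed pairing, chosen after seeing this, gave 0 called genes. Genes named above, none of them called, took the opposite sign in some alternatives, and the cause was not tested. Leaving out the arrays rich in antrum transcripts left 1 FGF1 array, on slide 2, and 1 irradiated saline array, on slide 1. Without the arrays rich in antrum transcripts, the log2 difference turned positive for Bbc3 (0.32), Camp (0.0077), Egr1 (0.80), Etv4 (0.11), Etv5 (0.081), Fgf10 (0.31), Fgf7 (0.20), Fgfr1 (0.12), Fgfr2 (0.067), Fgfr4 (0.079) and Spry1 (0.033). It turned negative there for Defa24 (-0.042), Elane (-0.38), Il1b (-0.073), Lyz1 (-0.088), Mpo (-0.16), Oas1a (-0.48), Reg3a (-0.54) and Spry2 (-0.081). With probes averaged it turned positive for Camp (0.076), Cxcl11 (0.0093), Fgfr3 (0.025) and Gbp6 (0.20), and after normexp for Fgfr3 (0.035) and Spry1 (0.0018), while Oas1a turned negative (-0.017). With no filter on dim probes it was 0.073 for Trim71, by another probe of the gene. It was negative for Bax after quantile normalisation (-0.053), and with the series matrix values for Bax (-0.034), Elane (-0.020) and Reg3a (-0.75). Depending on which irradiated saline array was left out, the sign differed for FGF pathway genes, with Egr1 from -1.12 to 0.39, Etv4 from -0.17 to 0.035, Etv5 from -0.67 to 0.24, Fgf1 from -0.039 to 0.20 and Fgf10 from -1.53 to 0.63. The range was Fgfr1 from -0.28 to 0.059, Fgfr2 from -0.084 to 0.054, Fgfr3 from -0.21 to 0.19, Fgfr4 from -0.19 to 0.13, Fos from -0.13 to 0.42, Spry1 from -0.061 to 0.048 and Spry2 from -0.046 to 0.15. For the antrum genes it was Gast from -4.32 to 1.93 and Muc5ac from -5.62 to 2.62. Other ranges were Bax from -0.075 to 0.11, Bbc3 from -0.38 to 0.31, Csf3r from -0.14 to 0.095, Cxcl10 from -0.39 to 0.040, Cxcl11 from -0.076 to 0.012 and Defa24 from -0.060 to 0.20. They were also Elane from -0.25 to 0.32, Gbp6 from -0.24 to 0.20, Isg20 from -1.41 to 0.61, Lyz1 from -0.12 to 0.40, Mdm2 from -0.067 to 0.25 and Mpo from -0.18 to 0.54. They were also Oas1a from -0.36 to 0.50, Olfm4 from -0.83 to 0.22, Reg3a from -0.69 to 1.07 and Stat2 from -0.013 to 0.42. Depending on which FGF1 array was left out, the ranges were Fgf15 from -1.47 to 0.19, Fgf7 from -0.25 to 0.054 and Klb from -1.84 to 0.36. Signals near background limit what can be said of Trim71, Gm4466 and the adipokines.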

Other observations

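Several gene groups not described above had fitted medians close to that of all genes, although in some the slides went opposite ways. The median difference was 0.00 for 28 ribosome biogenesis genes, 0.00 for 20 Notch pathway genes, -0.01 for 26 Wnt pathway genes, 0.00 for 35 double-strand break repair genes, -0.05 for 23 cholesterol synthesis genes and 0.00 for 24 genes of the unfolded protein and amino acid response, and none of their members had an unadjusted limma p under 0.05. Of the ribosome biogenesis genes, 23 of 28 were higher after FGF1 on slide 1 but only 6 on slide 2. Cholesterol synthesis genes did the reverse, with 1 of 22 higher on slide 1 and 16 on slide 2. The shares of all genes were 44.1% and 59.0%. For these lists a fitted median near 0 therefore does not mean equal levels on each slide. Goblet cell genes (15 measured) had a median of 0.00 and enteroendocrine genes (22 measured) of 0.04. Smooth muscle genes were below 0 in 13 of 15, with a median of -0.26, and without the second saline array the median was 0.01. T cell genes were above 0 in 16 of 19, with medians of -0.06 on slide 1 and 0.34 on slide 2.

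In the FGF1/CPP-C arrays, shown for their levels only, S100a9 stood at -1.33 and -1.78, Saa3 at 0.68 and -0.58 and Cfd at -6.95 and -4.52. B3galt5 stood there at -1.97 and -1.72 and Aqp8 at 3.01 and 4.04. These levels were not tested against the FGF1 or saline arrays here.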
